A study of Mus musculus with 60 samples.

Results

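Osteopontin, the secreted phosphoprotein encoded by Spp1, and the genes of 7 receptor chains that bind it were followed through sorted mouse microglia after a neonatal stroke. The receptor genes were Cd44 and the integrin subunits Itgav, Itga4, Itga9, Itgb1, Itgb3 and Itgb5. The rule lists these 8 genes by name, as ligand and receptors, and uses no measured value, though it was written with earlier results of these data known. All 8 were found by symbol among the 55413 genes of each of 4 expression tables.

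All mice carried Spp1-CreER and the R26-Tdtomato reporter, so that a cell in which the Spp1-driven recombinase had been active kept a red label (Tdt+) afterwards. The recombinase is driven by Spp1 itself, so in Tdt+ cells the Spp1 level is a measurement of the gene that gave the label, and the time of tamoxifen is not given in the sources used here. All animals had a stroke, and the contralateral cortex of the same kind of animal is the only control. Each bulk library was made from 2000 sorted microglia with a modified SMART-Seq2 protocol. At day 7 after injury (postnatal day 13) there were 3 libraries each of contralateral microglia and, from the injured cortex, of Tdt- and of Tdt+ microglia. At day 28 (postnatal day 34) there were 4 of each, and another 4 of each came from mice of that day given LPS, a bacterial product that activates microglia. A separate time course held only Tdt+ microglia from the side of the stroke, with 5 libraries each at day 3 (postnatal day 9), day 7 and day 14 (postnatal day 20) and 4 at day 28. In the day 7 and day 28 tables each contralateral library number has both a Tdt- and a Tdt+ column, while the labels list 1 contralateral sample per number and do not say which column it is. The Tdt- columns were taken as the contralateral group, and the Tdt+ columns, 3 and 4 of them, are given as contralateral Tdt+, so comparisons with each are reported. After LPS the contralateral columns are Tdt- by name. The columns used came to 59 in all. The labels do not say whether libraries of a group came from separate animals, so p-values measure the spread between these libraries.

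Osteopontin binds integrins of the alpha-v and beta-1 kinds through an RGD motif, binds alpha-4 and alpha-9 integrins through a neighbouring site exposed by thrombin, and binds variants of the hyaluronan receptor CD44. Integrins work as pairs of one alpha and one beta chain, and alpha-v pairs with beta-1, beta-3 or beta-5. In the brain Spp1 is known as a marker of phagocytic microglia in the early postnatal white matter and around lesions.

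All values are TPM, transcript abundances scaled for transcript length and library total, which can be compared between genes of a library, but which keep no sequencing depth, so the depth behind each value is unknown. Libraries held 10667 to 14093 genes at or above 1 TPM. Summed TPM of 9 microglia markers lay between 17100 and 58000 in every library, and the tables were normalized separately and levels are set side by side across tables without a test. In bulk RNA, fewer cells that express a gene and less RNA per cell cannot be told apart. An exact 0 is given below as listed at 0. Ranges that do not overlap are given as a description only. The share of all genes whose ranges do not overlap was not counted, and in groups this small it can be large.

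The Spp1 promoter is shown because Spp1 both carries the label and had the widest range of the 8 genes. Spp1 lies on chromosome 5 at 104435111 to 104441053 of GRCm38, on the plus strand. The RefSeq window shown, chr5:104434861-104435160 (GRCm38.p6), runs from 250 bases before to 50 bases after the start. A second Spp1 window, chr5:104435942-104436241, is not shown and held none of the 6 motifs listed below. Capitals mark matches from left to right, with positions counted from the start. They are the letters TATAAA at -211 to -206 and a RUNX match on the opposite strand at -128 to -123. A PU.1 match follows at -113 to -106.
Spp1: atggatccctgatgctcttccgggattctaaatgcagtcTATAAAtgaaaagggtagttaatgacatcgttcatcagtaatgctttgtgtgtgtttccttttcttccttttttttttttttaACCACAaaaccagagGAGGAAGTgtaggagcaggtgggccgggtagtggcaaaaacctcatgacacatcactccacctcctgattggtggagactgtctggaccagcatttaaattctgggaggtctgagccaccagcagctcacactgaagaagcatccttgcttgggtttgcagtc
The Cd44 window, shown because Cd44 had the largest difference among the receptor genes after LPS, is chr2:102901616-102901915 on the minus strand, and it held none of the 6 motifs searched.
Cd44: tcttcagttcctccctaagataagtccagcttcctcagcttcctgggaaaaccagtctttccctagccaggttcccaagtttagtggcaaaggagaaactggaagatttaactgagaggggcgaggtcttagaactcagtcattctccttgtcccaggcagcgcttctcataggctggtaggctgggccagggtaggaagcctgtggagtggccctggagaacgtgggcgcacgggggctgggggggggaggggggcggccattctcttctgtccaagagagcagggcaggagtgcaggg
The motifs searched on both strands were AP-1 (TGANTCA), RUNX (TGTGGT), PU.1 (GAGGAAGT), an E-box (CACGTG), a cyclic AMP element (TGACGTCA) and TATAAA. Among 32851 promoter windows of 300 bases, 3.2% held the PU.1 letters, 16.8% the RUNX letters and 13.6% TATAAA. A match describes letters in a window and is no evidence of binding. RefSeq windows were matched for 7 of the 8 genes.

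**Figure D1:**
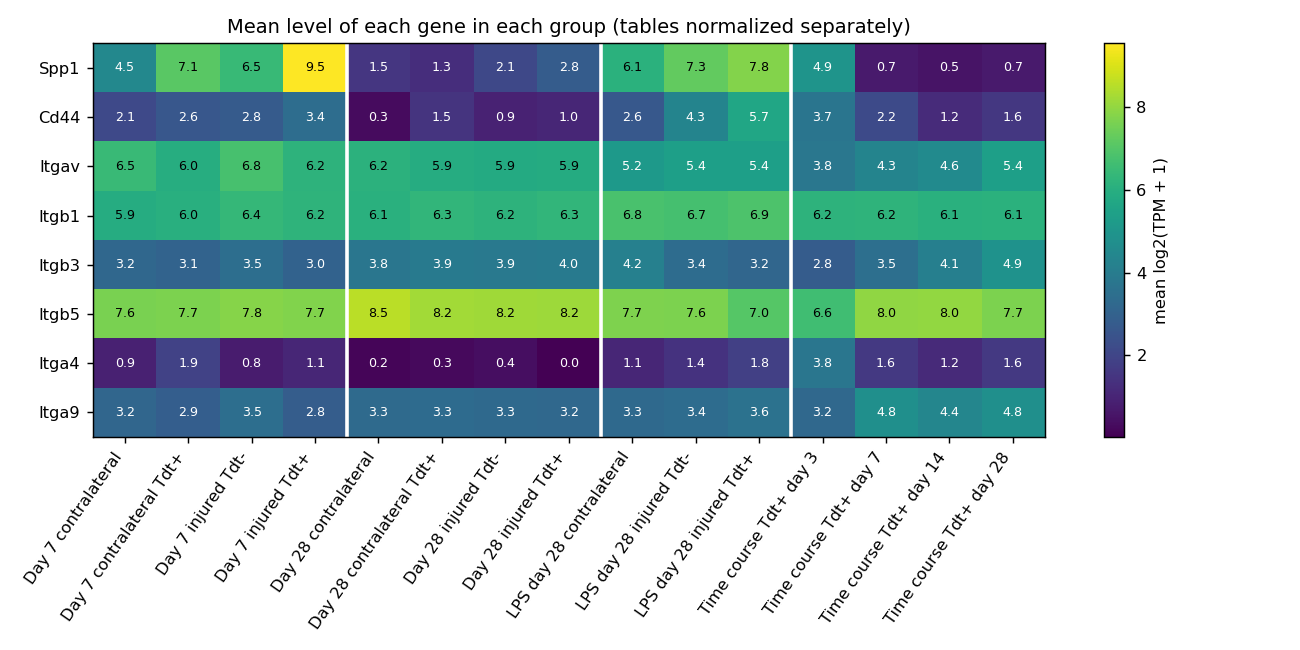
Mean log2(TPM + 1) of each of the 8 genes (rows) in each of the 15 groups (columns), with the value in each cell and white lines between the 4 tables. Itgb5 and Itgb1 are high throughout, while Spp1 spans the widest range, with the brightest cell in injured Tdt+ microglia of the day 7 table.

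Itgb5, the beta-5 chain that pairs with alpha-v, was the highest of the 7 receptor genes in 57 of 59 libraries. The exceptions were LPS Tdt+ libraries 1 and 2, where Itgb1 led. Itgb5 made up 68.6 to 90.2% of the summed TPM of the 3 beta chains in the day 28 table, and 68.0 to 76.1% at day 7. Spp1 was the highest of all 8 genes in 8 libraries. These were the 3 day 7 Tdt+ libraries of the injured cortex, day 7 Tdt- library 2, contralateral Tdt+ library 1 of day 7, LPS Tdt- library 4, and LPS Tdt+ libraries 2 and 4.

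At day 7 the question was how labelled microglia of the injured cortex differ from those of the contralateral side and from their unlabelled neighbours. Spp1 was listed at 534.1, 842.55 and 922.42 TPM in Tdt+ libraries of the injured cortex. In Tdt- libraries it was 17.77, 218.84 and 162.47 TPM, and in contralateral libraries 41.47, 2.98 and 61.49 TPM. Every injured Tdt+ library stood above every library of these groups, whereas the Tdt- and contralateral ranges overlapped. The highest Spp1 rank was 134 among all genes of a library. The log2 difference from contralateral was 5.09 ± 1.02 (SE) and did not pass the test over all genes (limma with Benjamini-Hochberg adjustment, adjusted p = 0.148). The difference from Tdt- was 3.09 ± 1.02 (adjusted p = 0.862) and that of Tdt- from contralateral was 2.00 ± 1.02 (adjusted p = 0.905). In contralateral Tdt+ columns Spp1 was 543.51, 41.29 and 113.16 TPM, overlapping the injured Tdt+ range through library 1. Against contralateral Tdt- that is a log2 difference of 2.65 ± 1.08 (adjusted p = 0.661), and injured Tdt+ against contralateral Tdt+ gave 2.44 ± 1.08 (adjusted p = 0.666).

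No member passed in any of the 3 day 7 comparisons of labelled groups, where 0.0712, 0.0158 and 0.00791% of all 12637 genes tested were called for Tdt+ against contralateral, Tdt+ against Tdt- and Tdt- against contralateral. At an unadjusted p under 0.05, Spp1 and Cd44 were past the limit in the first, Spp1 in the second and Itgb1 in the third, where 7.18, 5.24 and 5.68% of all genes were. The 2 comparisons with contralateral Tdt+ cells also called no member, with 0 and 0.0991% of genes called, and Spp1 alone was past the unadjusted limit in each, as were 7 and 7.32% of genes. Cd44, the hyaluronan receptor, was 9.30, 14.46 and 6.81 TPM in injured Tdt+ and 2.30, 6.42 and 2.49 TPM in contralateral libraries. These ranges did not overlap, but the difference of 1.29 ± 0.46 was not called (adjusted p = 0.564). The alpha-v chain Itgav was 63.90, 78.73 and 71.61 TPM in Tdt+ against 114.45, 118.40 and 93.21 TPM in Tdt- cells of the injured cortex. These ranges did not overlap either, but the difference was small against its error (log2 -0.60 ± 0.37). It was not called (limma, unadjusted p = 0.136, adjusted p = 0.932). Itgb5 lay between 162.24 and 261.09 TPM in all day 7 columns and Itga4 at 9.03 TPM or below.

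The 6 border-associated macrophage markers summed to 55.7 to 189 TPM in contralateral, 84.1 to 376 in contralateral Tdt+, 175 to 201 in Tdt- and 115 to 333 in injured Tdt+ libraries. The highest sum, 376, fell in contralateral Tdt+ library 1, the library with the highest contralateral Spp1. The microglia markers summed to 38400 to 44700 TPM in contralateral, 34800 to 43800 in Tdt- and 30300 to 32900 in injured Tdt+ libraries. Between Tdt+ and Tdt- cells the B cell (77.6 to 90.2 and 96.5 to 124 TPM), platelet (7.34 to 19.2 and 21.8 to 28.9) and oligodendrocyte sums (at least 16.3 and at most 15) did not overlap either, and the B cell sum was all Cd79b, with Cd79a and Ms4a1 at 0. The summed neutrophil markers were 179 TPM in injured Tdt- library 3 and 0 in every other day 7 library. Without that library Spp1 differed by 3.54 ± 1.16 between Tdt+ and Tdt- (adjusted p = 0.797) and by 1.55 ± 1.16 between Tdt- and contralateral (adjusted p = 0.917). The part of these marker sums in the Spp1 values was not tested. Of 41 other genes of the pathway, 22 were tested, and 1 passed in Tdt+ against contralateral. This was Fn1, fibronectin, another ligand of these integrins, at 17.27 to 61.37 TPM against 0 to 1.13 TPM (log2 4.70 ± 0.61, adjusted p = 0.0197). It also passed in injured against contralateral Tdt+ cells (4.25 ± 0.71, adjusted p = 0.0402), and no gene of the list passed in the other 3 comparisons of day 7.

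At day 28 the same groups were compared after 3 more weeks. Spp1 had low values in every group: 1.49, 1.23, 2.40 and 2.77 TPM in contralateral, 5.17, 2.77, 6.68 and 0.82 in Tdt-, and 31.74, 1.3, 8.45 and 2.19 in Tdt+ libraries. Contralateral Tdt+ columns were listed at 0.29, 0, 26.03 and 0 TPM. All ranges overlapped, and Tdt+ against contralateral gave 1.25 ± 0.68 (adjusted p = 0.991). Spp1 in the best library ranked 4331 among all genes. Cd44 did not exceed 5.10 TPM and Itga4 did not exceed 0.95 TPM, below the level needed for a test. Of the 7 members tested none passed in any of the 3 comparisons of labelled groups, where 0% of 12710 genes were called and 585, 473 and 575 genes (4.6, 3.72 and 4.52%) were past an unadjusted p of 0.05. Itgb5 was the only member among the unadjusted ones, in Tdt+ against contralateral, at 282.80, 290.67, 253.34 and 318.54 TPM against 293.96, 288.68, 368.85 and 617.51 TPM (log2 -0.38 ± 0.18, adjusted p = 0.991). The 2 comparisons with contralateral Tdt+ columns called no member either, with 0.0992% of genes called in each, and no member was past the unadjusted limit there. Itgav lay between 43.35 and 165.84 TPM in this table, Itgb1 between 47.99 and 100.56 and Itga9 between 4.98 and 13.77, with overlapping groups throughout. None of the 24 tested genes of the pathway list passed at day 28.

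**Figure D2:**
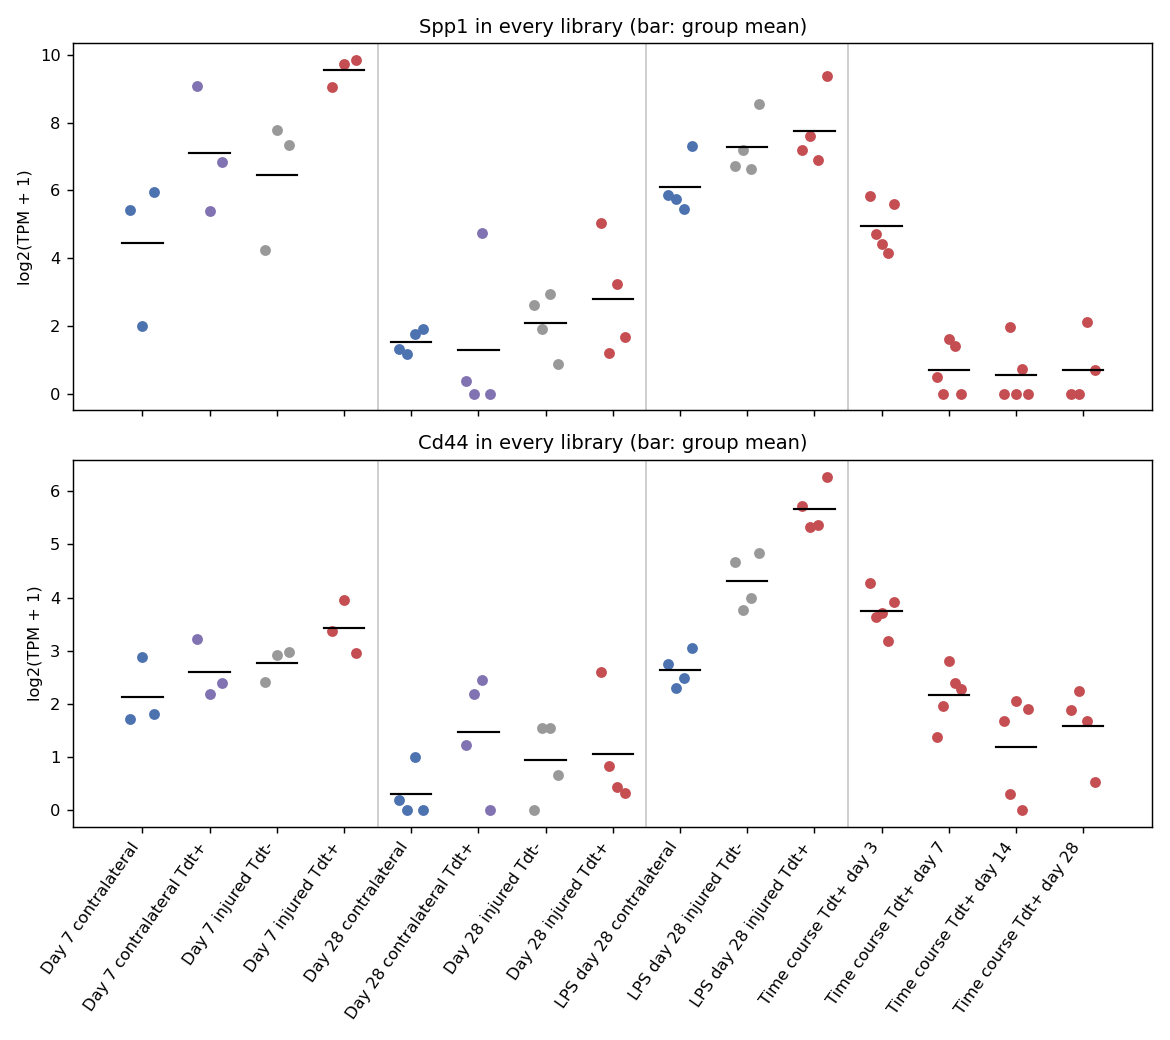
Level of Spp1 (top) and Cd44 (bottom) as log2(TPM + 1) in each of the 59 columns, grouped by table (grey lines) and cell group, with 1 point per library and a bar at the group mean of the log values. Spp1 is high in injured Tdt+ cells of the day 7 table and after LPS. It is lowest from day 7 on in the time course, and the 3 groups after LPS do not overlap for Cd44.

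After LPS the comparison asked how labelled and unlabelled cells of the injured cortex differ from contralateral cells and from each other. All of these libraries came from mice given LPS, so differences between them do not measure a response to LPS. The 3 libraries numbered 4 stood apart, and results are given with and without them. Spp1 was 57.33, 52.48, 42.92 and 157.35 TPM in contralateral, 103.85, 144.54, 98.33 and 372.87 in Tdt- and 145.35, 192.15, 118.30 and 665.23 in Tdt+ libraries. In each group the library numbered 4 was the highest, and contralateral library 4 reached into the ranges of the other groups. Same-numbered libraries kept a steady order: the Tdt+ to contralateral ratio of Spp1 was 2.54 to 4.23 and the Tdt- to contralateral ratio 1.81 to 2.75, above 1 in 4 of 4 numbers. Spp1 was not called in the fit without pairs: the log2 difference of Tdt+ from contralateral was 1.67 ± 0.57 (limma, adjusted p = 0.244), that of Tdt- from contralateral 1.18 ± 0.57 (adjusted p = 0.874) and that of Tdt+ from Tdt- 0.50 ± 0.57 (adjusted p = 1).

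Cd44 separated the 3 groups completely. It was 5.77, 3.93, 4.58 and 7.27 TPM in contralateral, 24.44, 12.57, 14.87 and 27.75 in Tdt- and 51.70, 39.09, 40.32 and 76.46 in Tdt+ libraries. The Tdt+ to contralateral ratio within a number was 8.8 to 10.5 and the Tdt+ to Tdt- ratio 2.12 to 3.11. Cd44 rose in Tdt+ against contralateral by 3.03 ± 0.29 on the log2 scale (limma, adjusted p = 0.000396). Tdt- against contralateral (1.67 ± 0.29, adjusted p = 0.0842) and Tdt+ against Tdt- (1.36 ± 0.29, adjusted p = 0.411) were not called.

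Itgb5 was lower in labelled cells. It was 178.74, 207.52, 225.41 and 219.98 TPM in contralateral, 189.85, 209.01, 197.15 and 203.66 in Tdt-, and 115.23, 130.22, 135.82 and 136.06 in Tdt+ libraries. The Tdt+ libraries lay below all 8 others, and the other groups overlapped. The log2 difference of Tdt+ from contralateral was -0.68 ± 0.11 (limma, adjusted p = 0.00851), that from Tdt- -0.63 ± 0.11 (adjusted p = 0.254), and that of Tdt- from contralateral -0.05 ± 0.11 (adjusted p = 0.981). Itgb5 made up 41.6 to 58.7% of the 3 beta chains in Tdt+ and 53.0 to 69.1% in contralateral libraries. Itgb3, the beta-3 chain that also pairs with alpha-v, was 17.58, 16.81, 11.47 and 25.76 TPM in contralateral, 5.45, 7.48, 7.48 and 26.32 in Tdt- and 6.01, 5.52, 5.48 and 21.97 in Tdt+ libraries. The libraries numbered 4 were again the highest, and without them the Tdt- and Tdt+ ranges lay below the contralateral one. The log2 difference of Tdt+ from contralateral was -1.01 ± 0.49 (adjusted p = 0.476).

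In all, 2 of 8 members passed in Tdt+ against contralateral, Cd44 higher and Itgb5 lower, where 1.35% of 13397 genes did and the median gene differed by -0.12 on the log2 scale. The differences of Itgav (0.20 ± 0.30), Itgb1 (0.05 ± 0.24), Itga4 (0.76 ± 0.33) and Itga9 (0.31 ± 0.27) did not pass, with adjusted p of 0.883, 0.971, 0.4 and 0.76. No member passed in Tdt+ against Tdt-, where 0% of genes were called and 618 (4.61%) were past an unadjusted p of 0.05, Cd44 and Itgb5 among them. None passed in Tdt- against contralateral (0.0149% of genes called), where Cd44 alone of the members was past the unadjusted limit, as were 770 genes in all (5.75%). With the replicate number as a block, the calls became Spp1 (adjusted p = 2.57e-05), Cd44 (2.2e-06), Itgb3 (0.0336) and Itgb5 (0.000316) for Tdt+ against contralateral, Cd44 (0.00549) and Itgb5 (0.00797) for Tdt+ against Tdt-, and Spp1 (0.00179) and Cd44 (0.000539) for Tdt- against contralateral. The block also raised the share of all genes called, to 6.94, 0.463 and 0.888%. Without the libraries numbered 4, an alternative chosen after their values were seen, Tdt+ against contralateral called Spp1 (log2 1.54, adjusted p = 0.00502), Cd44 (2.96, 0.000633), Itgb3 (-1.27, 0.0217) and Itgb5 (-0.67, 0.017), where 2.47% of 13504 genes were called. Both other comparisons still called no member, with 0.0222 and 0.037% of genes called. Itga4 was 2.96, 2.54, 2.57 and 2.11 TPM in Tdt+ and 1.90, 1.81, 1.55 and 1.56 in Tdt- libraries, without overlap and without a call (log2 0.39 ± 0.33, adjusted p = 1).

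**Figure D3:**
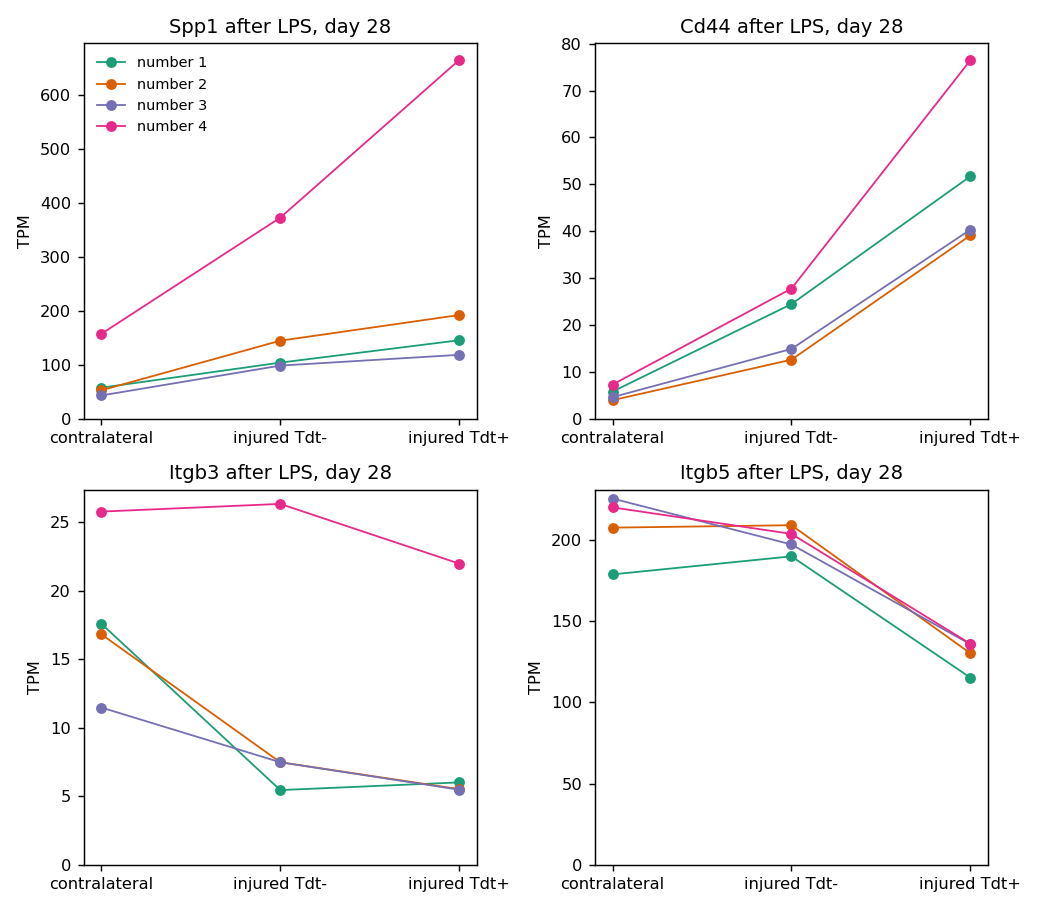
TPM of Spp1, Cd44, Itgb3 and Itgb5 after LPS (vertical axis, from 0) in the 3 cell groups (horizontal axis), with 1 point per library and a line joining libraries of the same number. Cd44 climbs in all 4 numbers, Itgb5 is lowest in Tdt+ in all 4, and the libraries numbered 4 are the highest for Spp1 and Itgb3.

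Microglia markers summed to 25500 to 33800 TPM in contralateral, 21600 to 27400 in Tdt- and 17200 to 25600 in Tdt+ libraries after LPS. The 8 neutrophil markers were all at 0 in contralateral libraries and summed to 0.58 to 8.85 TPM in Tdt- and 0.93 to 6.64 in Tdt+ libraries, with S100a9, Ngp, Ltf, Retnlg and Ly6g at 0 in both. Monocyte markers summed to 5.93 to 93.8 TPM in contralateral and 6.97 to 26.5 in Tdt+ libraries, with Ly6c2 and Chil3 at 0 in all 4 Tdt+ libraries. The B cell sum was 57 to 83.5 TPM in Tdt+ and 29.3 to 52.2 in contralateral libraries, without overlap, and in Tdt+ libraries it was all Cd79b. The part of these sums in the Cd44 and Itgb5 values was not tested. Of 25 other pathway genes tested, 2 passed in Tdt+ against contralateral, both higher. They were Vcam1, an adhesion ligand of the alpha-4 and alpha-9 integrins (log2 2.37 ± 0.31, adjusted p = 0.0017), and Itgal, the alpha-L chain of a leukocyte integrin (2.37 ± 0.38, adjusted p = 0.00738). Vcam1 was 65.69 to 155.38 TPM in Tdt+ against 16.01 to 30.80 in contralateral libraries. No gene of the list passed in the other comparisons after LPS.

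Whether the group differences themselves changed with LPS was tested as an interaction of the LPS and day 28 tables. No member passed for Tdt+ against contralateral (0.555% of 14602 genes called), Tdt+ against Tdt- (0%, with 579 genes past the unadjusted limit) or Tdt- against contralateral (0.0205%). Cd44 and Itga4 were past the unadjusted limit in the first, Itgb5 in the second and no member in the third, where 7.88, 3.97 and 5.44% of genes were. The Cd44 interaction for Tdt+ against contralateral was 2.27 ± 0.63 (adjusted p = 0.137), and it passed when day 28 Tdt+ library 1, which had the highest Cd44 of its group, was left out (2.79, adjusted p = 0.0171). That for Tdt+ against Tdt- was 1.25 ± 0.63 (adjusted p = 0.999). Itgb5 had an interaction of -0.29 ± 0.23 against contralateral (adjusted p = 0.855) and of -0.58 ± 0.23 against Tdt- (adjusted p = 0.999). Vcam1 (2.72 ± 0.47, adjusted p = 0.00459) and Itgal (2.89 ± 0.60, adjusted p = 0.0209) did pass.

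The time course compared labelled cells sorted at day 3, 7, 14 and 28, with separate libraries for each day. Age rose with the day after injury, and the time course held no contralateral or Tdt- group. Time after injury and age therefore cannot be told apart. Between day 3 and day 7 the ligand and a set of receptors fell while others rose. Spp1 was 56.16, 25.22, 20.31, 16.65 and 47.42 TPM at day 3 and 0.40, 0, 2.05, 1.67 and 0 at day 7. It was 0, 2.89, 0, 0.66 and 0 at day 14 and 0, 0, 3.36 and 0.61 at day 28. Every day 3 library stood above every later one. The fall to day 7 was -4.24 ± 0.50 on the log2 scale (adjusted p = 5.51e-06), a size that depends on the pseudocount because several later libraries are listed at 0.

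Cd44 fell with it, from 18.35, 11.50, 12.03, 8.07 and 14.04 TPM at day 3 to 1.61, 2.91, 6.02, 4.26 and 3.83 at day 7 (log2 -1.58 ± 0.43, adjusted p = 0.0159). The alpha-4 chain Itga4 fell from 25.23, 9.97, 12.79, 8.93 and 11.42 TPM to 2.41, 0.79, 4.22, 1.55 and 2.1 (-2.18 ± 0.50, adjusted p = 0.00465). Neither gene had overlapping values on these days. With a pseudocount of 0.1 neither was called, at -1.82 ± 0.79 for Cd44 (adjusted p = 0.138) and -2.65 ± 0.91 for Itga4 (adjusted p = 0.0565).

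The other 3 called chains rose over the same interval. Itgb5 went from 87.32, 103.14, 101.32, 95.75 and 100.75 TPM at day 3 to 240.53, 229.00, 226.76, 338.42 and 223.03 at day 7 (log2 1.34 ± 0.11, adjusted p = 5.04e-08). The alpha-9 chain Itga9, the other thrombin-site receptor chain, went from 6.78, 13.90, 5.82, 7.35 and 10.54 to 25.85, 28.69, 20.39, 37.92 and 22.36 TPM (1.53 ± 0.29, adjusted p = 0.000896), so that the alpha-4 and alpha-9 chains moved in opposite directions. Itgb3 went from 5.81, 7.11, 7.07, 4.65 and 5.16 to 10.83, 9.35, 10.28, 10.93 and 9.83 TPM (0.70 ± 0.19, adjusted p = 0.0151, and 0.0779 after quantile normalization). None of these ranges overlapped. Itgav (0.52 ± 0.26, adjusted p = 0.2) and Itgb1 (0.01 ± 0.22, adjusted p = 0.977) did not pass. In all, 6 of 8 members passed, 3 higher and 3 lower, where 9.93% of 15316 genes tested were called higher and 4.42% lower, with a median shift of 0.18.

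After day 7 fewer members were called. Only Itgb3 passed from day 7 to day 14 (log2 0.64 ± 0.19, adjusted p = 0.0475, 6% of genes called) and from day 14 to day 28 (0.73 ± 0.20, adjusted p = 0.0335, 6.27% of genes called), and these calls were not stable. After quantile normalization the adjusted p was 0.158 and 0.0912, and with 1 library left out in turn the calls held in 2 of 10 and 2 of 9 fits. The Itgav step from day 14 to day 28 (0.81 ± 0.28) was not called (adjusted p = 0.0852). Itgb3 was 15.12, 23.00, 14.33, 13.76 and 18.03 TPM at day 14 and 29.53, 24.29, 29.82 and 29.56 at day 28. Its range on each day lay wholly above that of the day before. Itgb5 was 223.66, 184.68, 213.55 and 181.37 TPM at day 28, all below the day 14 range of 230.51 to 267.26, but this step was not called (log2 -0.36 ± 0.12, adjusted p = 0.0736). From day 3 to day 28, 7 of 8 members passed where 43.6% of genes did and the median gene shifted by 0.56. Spp1 (-4.24 ± 0.53), Cd44 (-2.16 ± 0.45) and Itga4 (-2.18 ± 0.53) were lower, with adjusted p of 2.52e-06, 0.00075 and 0.00238. Itgav (1.60 ± 0.28), Itgb3 (2.08 ± 0.20), Itgb5 (1.03 ± 0.12) and Itga9 (1.53 ± 0.31) were higher, with adjusted p of 0.000108, 7.58e-08, 7.63e-07 and 0.000466. Itgav, the alpha-v chain, was 9.41, 18.01, 11.20, 18.42 and 10.66 TPM at day 3 and 40.78, 33.71, 72.54 and 29.41 at day 28, without overlap. Cd44 was 2.69, 3.72, 2.20 and 0.45 TPM at day 28, Itga4 0.72, 0.08, 8.55 and 3.74, and Itga9 21.61, 27.38, 37.44 and 21.52, none of them overlapping day 3. Itgb1, the shared partner of many alpha chains, kept to 60.44 to 80.19 TPM on those days and differed by -0.09 ± 0.24 (adjusted p = 0.782). At day 14 Itgb1 ranged from 31.14 to 112.89 TPM. The share of Itgb3 among the 3 beta chains went from 2.74 to 3.84% at day 3 to 8.83 to 10.3% at day 28. In injured Tdt+ libraries of the day 28 table this share was 2.01 to 6.21%.

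**Figure D4:**
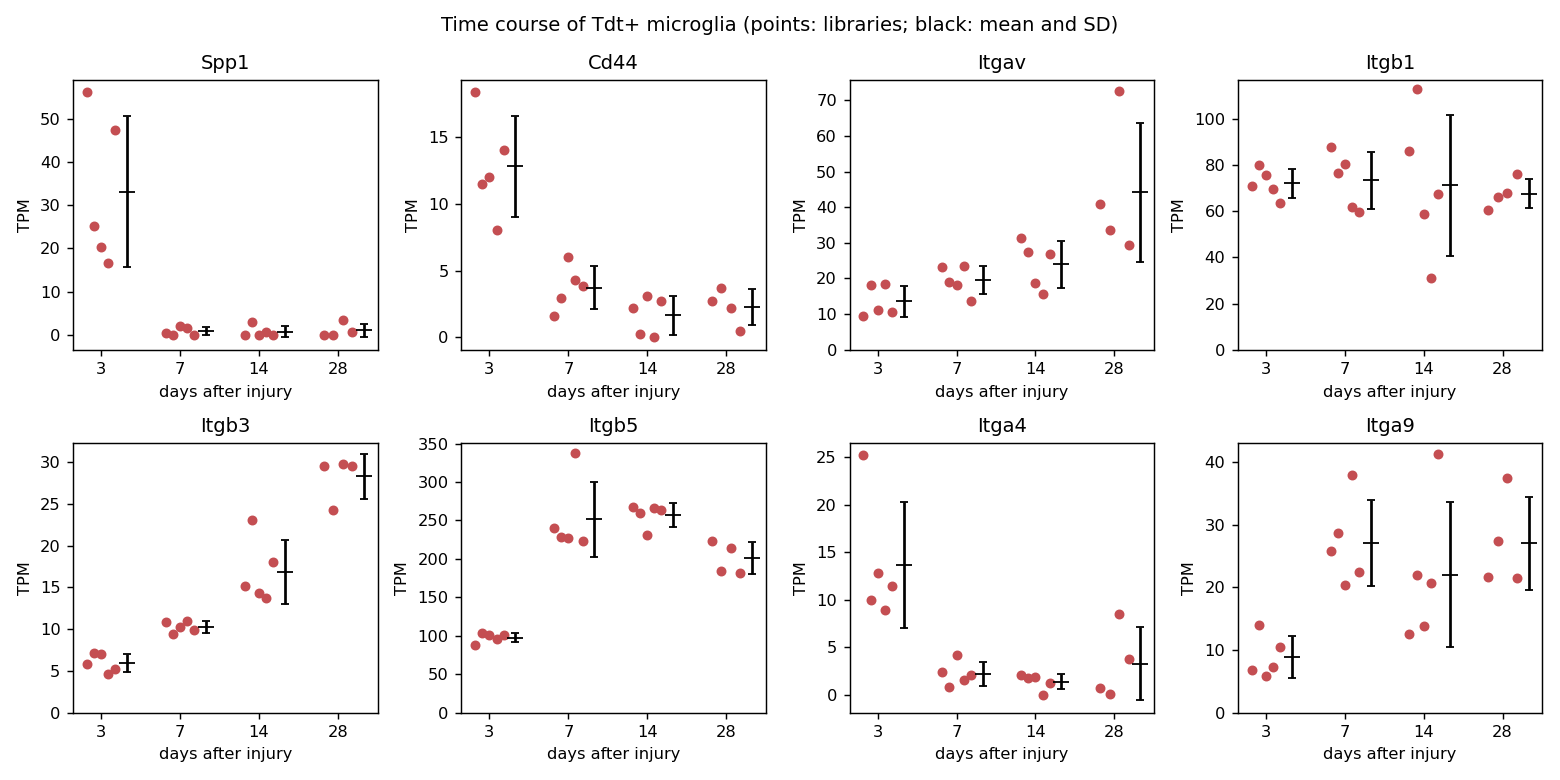
TPM of the 8 genes in Tdt+ microglia at day 3, 7, 14 and 28 after injury, with 1 red point per library and the mean and SD in black. By mean, Spp1, Cd44 and Itga4 are highest at day 3, Itgb5 and Itga9 are lowest there, and Itgb3 climbs at each day. Itga9 at day 14 overlaps day 3. The mean of Itgb1 shows no step, with a wide spread at day 14.

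Markers of other cells moved with the day 3 values. The 6 border-associated macrophage markers summed to 145 to 209 TPM at day 3, 27.3 to 39.3 at day 7, 12.5 to 31.1 at day 14 and 8.38 to 40.8 at day 28, with Lyve1 and Cd163 at 0 on all 3 later days. The microglia sum was 17100 to 20800 TPM at day 3 and 29800 or higher later. The platelet list, which bears on Itgb3, a platelet integrin chain too, summed to 44.8 to 74.2 TPM at day 28. Nearly all of this was Gp9, at 13.82 to 18.81 TPM at day 3 and 44.84 to 74.16 at day 28, while Itga2b, Gp1bb and Ppbp were at 0 there. Between day 3 and day 28 the ranges of 3 other sums also did not overlap. The B cell sum was 92.6 to 114 TPM at day 3 and 42.3 to 67.9 at day 28, nearly all of it Cd79b. The oligodendrocyte sum was 9.78 to 18.8 and 25.3 to 55.1 TPM, mostly Mbp, and the astrocyte sum 2.8 to 6.31 and 0.96 to 2.63 TPM. From day 3 to day 7 the monocyte sum also separated, at 0.81 to 3.47 TPM on day 3 and 4.39 to 40.8 on day 7. The platelet sum did too, at no more than 18.8 TPM on day 3 and 31.9 to 47.2 on day 7. The astrocyte sum was 0.17 to 0.98 TPM on day 7, and the erythroid sum 0 to 334 TPM on day 14. Their part in the member values was not tested.

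Among 26 other pathway genes tested, 9 rose and 4 fell from day 3 to day 7, where 9.93% of all genes were called higher and 4.42% lower. Among the rises were Src (log2 1.62 ± 0.25) and Tgfb1 (1.01 ± 0.25), and the largest falls were Fn1 (-2.37 ± 0.69), Itgax (-2.01 ± 0.41) and Fam20c (-1.94 ± 0.39). Src is a kinase downstream of integrins, Tgfb1 encodes the latent growth factor that alpha-v integrins activate, and Fam20c encodes the kinase that phosphorylates osteopontin. The later steps called 6 higher and 1 lower (day 7 to 14), and 2 higher and 1 lower (day 14 to 28). Of all 15316 genes tested, 683 were called higher and 236 lower from day 7 to 14, and 622 and 339 from day 14 to 28. From day 3 to day 28, 12 rose and 4 fell, where 5460 of all 15316 genes were called higher and 1221 lower. Tgm2, the transglutaminase that crosslinks osteopontin, was 0 to 0.63 TPM at day 3 and 25.23 to 43.80 at day 28 (4.76 ± 0.43, adjusted p = 2.92e-08). Fn1 fell (-5.08 ± 0.73, adjusted p = 1.33e-05), from 13.28 to 407.08 TPM to 0 to 1.75.

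The time course and the day 7 table each held labelled cells sorted from the lesioned side on day 7, and their values are far apart. Spp1 was 534.1 to 922.42 TPM in the day 7 table and 0 to 2.05 TPM in the time course. Itgav was 63.90 to 78.73 against 13.68 to 23.43 TPM, and Itga9 4.39 to 9.59 against 20.39 to 37.92 TPM. Itgb5, by contrast, was 197.86 to 235.72 in one and 223.03 to 338.42 TPM in the other. For day 28, Spp1 in Tdt+ cells was 1.3 to 31.74 TPM in the day 28 table and 0 to 3.36 in the time course. Itga9 was 4.98 to 12.44 TPM in the day 28 table and 21.52 to 37.44 in the time course. The Itgb3 share of the 3 beta chains was 2.01 to 6.21% and 8.83 to 10.3%, in that order. Itgav (43.35 to 106.02 and 29.41 to 72.54 TPM) and Itgb1 (62.53 to 95.6 and 60.44 to 76 TPM) overlapped. The tables were normalized separately and these differences were not tested.

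Genes whose level followed a member most closely are given as a description over 52 libraries, each table centred on its own mean, among 10340 genes. The libraries share tables, days and sorts. Spp1 went most closely with Ms4a4a (Pearson r = 0.81), Fn1 (0.78) and Cd38 (0.77), and Cd44 with Aoah (0.80), Cd38 (0.78) and Gas7 (0.78). Itgb3 went with Slc44a2 (0.85) and Sort1 (0.84), and Itgb5 with Sparc (0.84) and Rogdi (0.82). Itgav, Itgb1 and Itga4 had their highest values with Zscan26 (0.72), Tmem30a (0.66) and Arhgap19 (0.75).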

How the data were processed

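The authors deposited 4 tables of TPM per gene and library, covering day 7, day 28, day 28 after LPS and a Tdt+ time course. Reads were handled with cutadapt 2.10, STAR 2.7.5c, RSEM 1.3.3 and edgeR 3.32.0 on GRCm38, per the submitters' processing notes, which give no order or role. TPM is relative to each library's total, so a gene can change through others, and no depth can be recovered.

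Each table was fitted separately in limma 3.58.1 (R 4.3.3) on log2(TPM + 1) with a trend in the variance prior, for genes that reached 1 TPM in a number of libraries equal to the size of the smallest group. P-values were adjusted by Benjamini-Hochberg over all genes tested, with a threshold of 0.05. Every fold is on the log2(TPM + 1) scale, which understates changes of low genes. The 3 labelled groups of a table shared a fit. Contralateral labels at day 7 and 28 match a Tdt- and a Tdt+ column each. The Tdt- column was taken as the contralateral library, and the Tdt+ column entered a 4-group fit. The interaction joined the day 28 and LPS tables and tested differences of within-table differences only. The fit was tested on simulated data. Motif letters were searched in RefSeq promoter windows of GRCm38.p6.

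The genes named were the 8 members in every comparison, pathway genes that passed (at most 3 rises and 3 falls by fold), and the genes of highest Pearson r with each member. Some genes that this rule names are not reported here. Members and lists were chosen with earlier results of these data known. Alternatives were a pseudocount of 0.1, no filter, quantile normalization, a replicate block and leaving out libraries in turn. After the data were seen, the libraries numbered 4 after LPS were left out and the contralateral Tdt+ columns were added to the day 7 and day 28 fits.

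Same-numbered libraries after LPS deviated together, with residual correlations of 0.194 to 0.551 for Tdt+ with contralateral and 0.123 to 0.524 for Tdt+ with Tdt-. The numbers can be read as pairs only from the data, since the labels do not say what a number marks. The main fits used no pairs, and the replicate block was an alternative. For Tdt- with contralateral (0.074 to 0.563) and in the other tables not every pair passed 0.1. The single-cell and ATAC samples were not used here.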

Additional observations from a re-analysis of the deposited data

Results flagged for a closer look

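In 88 combinations of gene and group with 4 or 5 libraries, 16 had a library whose gap to its nearest neighbour was large for the range of the group (Dixon's test at the 95% level). For normally distributed values chance flags about 1 in 20 groups. The TPM values here are skewed and hold zeros, and the genes share libraries, so the count cannot be set against that rate.

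After LPS the libraries numbered 4 were the high ones in each case. In library 4 Spp1 was 157.35 TPM for contralateral, 372.87 for Tdt- and 665.23 for Tdt+ cells, and the nearest other libraries were at 57.33, 144.54 and 192.15. Itgb3 was 26.32 TPM in Tdt- and 21.97 in Tdt+ library 4, with the nearest others at 7.48 and 6.01.

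At day 28, Spp1 was 26.03 TPM in contralateral Tdt+ column 3 with the next at 0.29. Cd44 was 5.1 TPM in Tdt+ library 1 and 1.0 TPM in contralateral library 3. Itga4 was 0.44 TPM in contralateral library 3 and 0.95 TPM in contralateral Tdt+ column 1. Itgav was 106.02 TPM in Tdt+ library 4.

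In the time course, Itga4 was 25.23 TPM in day 3 library 1, Spp1 2.89 TPM in day 14 library 2 and Itgb5 338.42 TPM in day 7 library 4. Itgb5 was lowest at 230.51 TPM in day 14 library 3, and Itgb3 was lowest at 24.29 TPM in day 28 library 2.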

How the results depend on the processing

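The replicate block raised the members called after LPS to 4 for Tdt+ against contralateral, 2 for Tdt+ against Tdt- and 2 for Tdt- against contralateral, while calls over all genes went from 181, 0 and 2 to 930, 62 and 119. Outside LPS the numbers were not established as pairs. After LPS, residual correlations of Tdt- with contralateral were 0.074, 0.199, 0.306 and 0.563 for numbers 1 to 4. Only number 1 fell below the limit of 0.1. The same libraries and numbers passed it in both comparisons with Tdt+, so this value is no ground to treat the Tdt- calls apart. All block calls after LPS rest on reading the numbers as pairs, which the labels do not state. Leaving out the libraries numbered 4 gave 4 for Tdt+ against contralateral, with 333 genes called in all. From day 7 to 14 the count fell to 0 with a pseudocount of 0.1, quantile normalization or the block, and from day 14 to 28 to 0 with quantile normalization or the block. The cause was not tested. With each library left out, these counts ranged from 0 to 1, as did that of the Tdt+ against contralateral interaction. The Itgb3 steps held their calls in 2 of 10 and 2 of 9 such fits (0.53 to 0.71 and 0.67 to 0.85 on the log2 scale).

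Signs turned only for differences far from the threshold. With quantile normalization Spp1 was 0.31 in contralateral Tdt+ against Tdt- at day 28 and -0.02 from day 14 to 28, and Itgb1 was -0.10 from day 3 to 7. Leaving out libraries gave Spp1 ranges of -0.05 to 1.23 (day 28, Tdt+ against Tdt-, lowest without Tdt+ library 1), -0.04 to 0.92 (LPS, Tdt+ against Tdt-, lowest without Tdt+ library 4), -1.42 to 0.17 (day 28 contralateral Tdt+ against Tdt-), -0.52 to 0.06 (day 7 to 14), -0.31 to 0.52 (day 14 to 28), -0.11 to 1.17 (interaction, against contralateral) and -0.74 to 0.54 (interaction, against Tdt-). For Itgb1 they were -0.09 to 0.27 (LPS, against contralateral) and -0.05 to 0.08 (day 3 to 7). TPM gives no depth, so low values and zeros carry an unknown counting error.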
